A study of Mus musculus with 6 samples.

Results

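The ADAM proteins (a disintegrin and metalloproteinase) are membrane-bound enzymes that cut other membrane proteins close to the cell surface and release their outer part, a step called ectodomain shedding. Adam8, Adam9, Adam10, Adam15, Adam17 and Adam19 were chosen by name, as members that carry the zinc-binding sequence needed for this cut. All 6 were found among the 24394 gene symbols of the tables. For each member the FPKM (fragments mapped to a transcript, relative to its length and to the fragments mapped in the library) of every row with its symbol were added up in each library.

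Macrophages were grown from the bone marrow of C57BL/6 mice at postnatal day 28 for 7 days with 50 ng/ml macrophage colony-stimulating factor. Crushed mouse cartilage was then added to 3 of the cultures, the stimulated group, at a ratio of 5 fragments to each cell and left for 24 h, while 3 control cultures had none. No genetic change, strain difference or further agent separates the groups, and the number of mice behind the 6 cultures is not given in the sources used here. The p-values therefore measure the spread between cultures, which may be technical. The macrophage markers fixed for this report were present in all libraries. Their summed levels were 50900 to 60500 FPKM in control and 54200 to 61600 FPKM in stimulated cultures. Lyz2 alone made up most of that sum, at 52680 ± 4878 and 53830 ± 4117 FPKM (SD, n = 3). Neutrophil markers summed to 978 to 1080 and 871 to 1230 FPKM, and fibroblast markers to 155 to 169 and 104 to 119 FPKM. Chondrocyte markers summed to at most 4.27 FPKM, and the 6 lymphocyte markers were listed at 0. The study's methods name male mice, whereas Xist lay between 19.8 and 23.6 FPKM in all 6 libraries and the 4 Y-linked transcripts looked up were listed at 0. In mixed RNA of a culture, a change in the number of cells of a type and a change in RNA per cell cannot be told apart.

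Adam17, also called TACE, is the enzyme that releases Tnf, its receptors and many growth factors from the cell surface, and it depends on the iRhom proteins to leave the endoplasmic reticulum. Adam10 cuts Notch receptors, cadherins and chemokines anchored in the membrane and is escorted by tetraspanins of the TspanC8 group. Adam8 is a sheddase of leukocytes and osteoclasts that takes part in cell migration, Adam9 and Adam15 are widely expressed sheddases with cytoplasmic tails that bind SH3 domains, and Adam19 is best known from heart and lung development. All are made as inactive precursors. Furin-like convertases cut several of them, and tissue inhibitors of metalloproteinases hold some of them, not all, in check.

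The coding stretch of the zinc-binding site shows what the members share. It is printed 5′ to 3′ from the GENCODE M21 transcripts of the GRCm38 genome, the mm10 build that the tables also use. Capitals mark the codons of the 3 histidines that hold the zinc ion and of the glutamate that takes part in the cut.
Adam8: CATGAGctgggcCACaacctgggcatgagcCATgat
Adam9: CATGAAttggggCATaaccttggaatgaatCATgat
Adam10: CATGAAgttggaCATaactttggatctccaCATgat
Adam15: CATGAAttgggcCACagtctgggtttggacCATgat
Adam17: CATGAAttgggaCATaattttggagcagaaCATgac
Adam19: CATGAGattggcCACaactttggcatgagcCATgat

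Of the 36 bases, 19 were the same in all 6 members. Across the 15 pairs, between 21 and 32 bases were identical, with Adam8 and Adam19 the most alike and Adam8 and Adam17 the least alike. The stretch was located by a pattern that fixes most bases of the marked codons, of a glycine codon and of the last codon. Part of this identity was therefore set in advance. The stretch lies within exon 11 of the transcript used for Adam8 at chr7:139987890-139987925 (minus strand), for Adam9 at chr8:24990323-24990358 (minus), for Adam15 at chr3:89344777-89344812 (minus), for Adam17 at chr12:21336729-21336764 (minus) and for Adam19 at chr11:46125050-46125085 (plus). In Adam10 an intron divides it, so that 30 bases lie at the end of exon 9 at chr9:70754296-70754325 and 6 at the start of exon 10 at chr9:70761583-70761588 (plus).

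In the control macrophages Adam8 was by far the most abundant member and Adam19 was barely detected. Mean FPKM by gene symbol in control cultures was 457 ± 9.27 (SD, n = 3) for Adam8, 56.0 ± 6.96 for Adam17, 53.8 ± 2.45 for Adam10, 53.3 ± 5.27 for Adam15, 48.7 ± 2.64 for Adam9 and 1.17 ± 0.254 for Adam19. On this sum Adam17, Adam10, Adam15 and Adam9 formed a middle group in which each overlapped the next in that order. The order within this group differed on the second sum described below, where Adam15 ranked above Adam17. Adam8 lay above and Adam19 below all of the others in every library. Over all 6 libraries the mean level of Adam8 ranked 166 and that of Adam19 ranked 10033 among all symbols. Of 28 other Adam genes looked up, 20 were listed at 0 in all libraries and 6 more stayed under 1 FPKM, so that only Adam1a (highest library 4.17 FPKM) and Adam33 (3.01 FPKM) were tested, with 0 of 2 passing an adjusted p of 0.05 in the limma test described next.

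**Figure D1:**
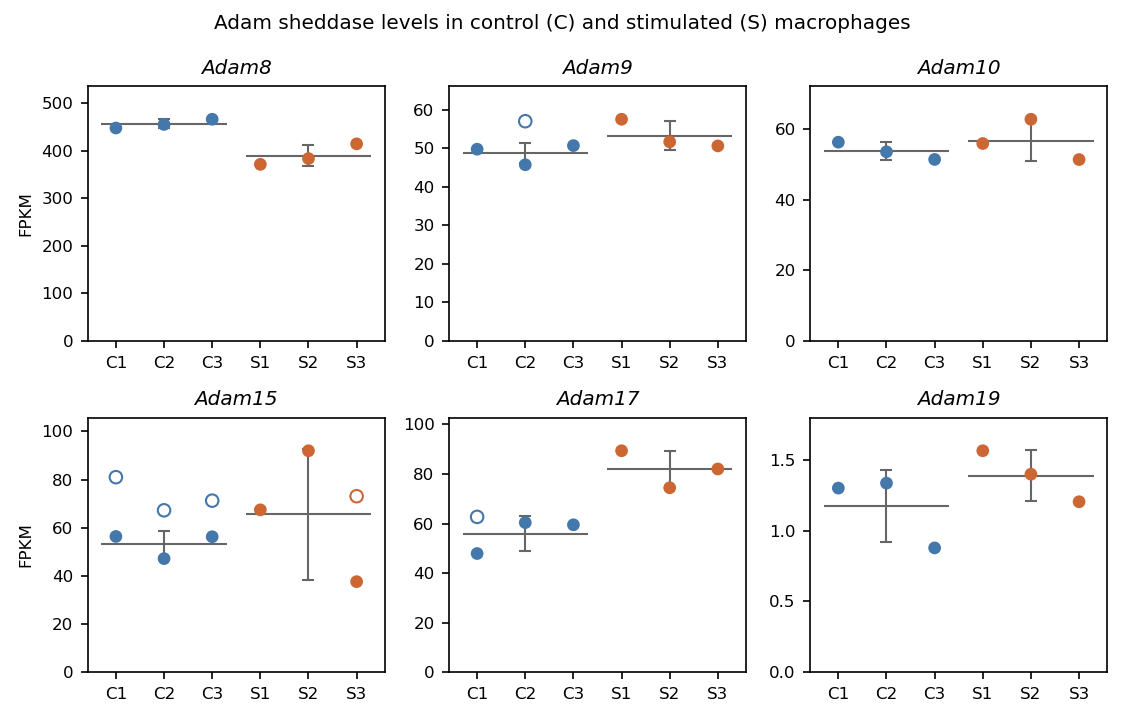
FPKM of each member (y axis, linear, from 0) in the 3 control (C, blue) and 3 stimulated (S, orange) libraries. Filled points are sums by gene symbol, open points include transcripts assembled at the gene, and lines with bars are group means ± SD of the filled points. The stimulated points lie above the control points for Adam17 and below them for Adam8, and overlap them for the other 4.

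Differences between the groups were tested with limma on log2(FPKM + 0.1) over the 10352 symbols that averaged 1 FPKM or more, adjusted by Benjamini-Hochberg, so that the fold change of a low gene is understated. At an adjusted p of 0.05, 0.145% of all tested genes were called higher and 0.0386% lower, 15 and 4 genes, and 675 had an unadjusted p under 0.05. None of the 6 members was called, and 2 of the 6, Adam17 and Adam8, had an unadjusted p under 0.05. Counted by groups that do not overlap, 1 member was higher and 1 lower, where 8.73% of all tested genes were higher and 6.13% lower. The median log2 fold change was 0.17 over the members and 0.02 over all tested genes.

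A second sum was needed because the authors' program assembled further transcripts in each library that carry no gene symbol. Where such a transcript was assembled at a gene, the fragments assigned to it were missing from the sum by gene symbol in that library only. Adding these transcripts to their gene narrowed the spread between replicates across the table as a whole, and this sum is given beside the sum by gene symbol below. It did not do so for every gene: the control SD of Adam9 rose from 2.64 to 3.95 FPKM. With it 0.316% of 10449 tested genes were called higher and 0.0861% lower, and none of the members. A further measure, chosen after the data were seen, used the same transcripts as fragments estimated from the deposited coverage, scaled to each library and with 1 added before log2. With it 1.67% of tested genes were called higher and 0.938% lower, among them 1 member in each direction, as described below. On scaled fragments of the named transcripts alone 0.106% were called higher and 0.029% lower, and none of the members.

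Adam17 showed the largest difference of the 6 members by gene symbol. Its FPKM by gene symbol was 47.9, 60.4 and 59.5 in the control and 89.4, 74.4 and 82.0 in the stimulated libraries. All 3 stimulated libraries lay above all 3 controls, and control 1, the lowest, was the only library in which a further transcript was assembled at the gene. With that transcript of 14.8 FPKM added, the controls became 62.7, 60.4 and 59.5 FPKM, a mean of 60.9 ± 1.64 (SD, n = 3) against 81.9 ± 7.46 in stimulated cultures, a ratio of 1.35.

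By gene symbol the log2 fold change of Adam17 was 0.55 (SE 0.138, 95% interval 0.21 to 0.89, limma adjusted p 0.438), higher in 3 of 3 stimulated libraries. With assembled transcripts it was 0.42 (SE 0.112, limma adjusted p 0.233). On scaled fragments with assembled transcripts it was 0.42 (SE 0.089, limma adjusted p 0.00326), which passed the threshold. That call was lost without stimulated 1, the library with the highest Adam17, at an adjusted p of 0.0783, and held in the other 5 fits that left out 1 library (0.00506 to 0.027). The fragments behind it numbered 587 over the 3 controls together and 756.3 over the 3 stimulated libraries, for which counting error alone gives a standard error of 0.08 on the log2 scale.

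All Adam17 FPKM of named transcripts fell on NM_009615, a protein-coding form, in every library, and the other 4 listed Adam17 transcripts were at 0. The gene lies on chromosome 12 at 21323509 to 21373632 (mm10, minus strand). Its 3′ end overlaps that of Iah1, a hydrolase gene on the opposite strand, which ends at 21323607. Iah1 was listed at 0, 41.1 and 45.2 FPKM in the control and at 0 in all 3 stimulated libraries. The library kit keeps strand, but whether the counting used strand is not given in the sources used here, and the part of this overlap in the Adam17 values was not tested.

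Adam8 moved the other way. Its FPKM was 448, 456 and 467 in the control and 372, 384 and 415 in the stimulated libraries, with no assembled transcript at the gene. The groups did not overlap, and stimulated cultures were lower by 14.6% between the means of 457 ± 9.27 and 390 ± 22.2 (SD, n = 3 each). The log2 fold change was -0.23 (SE 0.061, 95% interval -0.38 to -0.08) at a limma adjusted p of 0.48, and 0.262 when assembled transcripts were added for all genes. On scaled fragments with assembled transcripts Adam8 fell by 0.23 on the log2 scale (SE 0.05, limma adjusted p 0.00462). That call was lost without stimulated 1 (adjusted p 0.0834) and without stimulated 2 (0.0543), and passed in the other 4 fits that left out 1 library. With 3018 fragments in control and 2458 in stimulated libraries, Adam8 had the smallest counting error of the family, 0.04 on the log2 scale.

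Neutrophils and their precursors also carry Adam8. Of the 9 markers of these cells, 8 were in the tables and 6 were tested, and their summed level ranged from 978 to 1080 FPKM in control and from 871 to 1230 FPKM in stimulated cultures. Mpo and Elane, which define the precursors, were at or near 0, with a highest value of 1.88 FPKM. The 6 did not share a direction, with 2 higher and 4 lower means in stimulated cultures. S100a8, a calcium-binding protein of these cells, was 318 ± 66.2 FPKM in control and 378 ± 66.8 in stimulated cultures (SD, n = 3), and Camp, a granule peptide, was 13.7 ± 12.5 and 22.8 ± 9.59, while S100a9 was 443 ± 22.4 and 391 ± 96.5, Ltf 30.4 ± 5.42 and 25.1 ± 3.10 and Ngp 62.8 ± 12.4 and 62.4 ± 19.7, the groups overlapping for all 5. Mmp8, a collagenase of neutrophil granules, was 154 ± 19.6 FPKM in control and 122 ± 7.29 in stimulated cultures (SD, n = 3), the groups not overlapping. Its log2 fold change was -0.34 (limma adjusted p 0.698 by gene symbol and 0.0413 on scaled fragments with assembled transcripts, lost in 4 of the 6 fits that left out 1 library). The part of these cells in the Adam8 values was not tested.

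The 2 Adam8 transcripts of the tables differ in length by 3 bases, a difference seen in GENCODE as a longer start of exon 2 at chr7:139991447-139991449 (minus strand, coding). GENCODE pairs its transcript with the extra bases with NM_007403 and the one without them with NM_001291066, and the stretches below are from those GENCODE transcripts. Capitals mark the extra bases, with 15 bases on each side.
NM_007403: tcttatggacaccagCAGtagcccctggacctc
NM_001291066: tcttatggacaccagtagcccctggacctc
NM_007403 took 25.5%, 29.5% and 13.7% of Adam8 FPKM in the control and 29.7%, 18.2% and 37.3% in the stimulated libraries. The groups overlapped, and the share varied among libraries of 1 group by more than the group means differed. NM_001291066 held the larger share in all 6 libraries. Only a read over these 3 bases tells the forms apart.

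**Figure D2:**
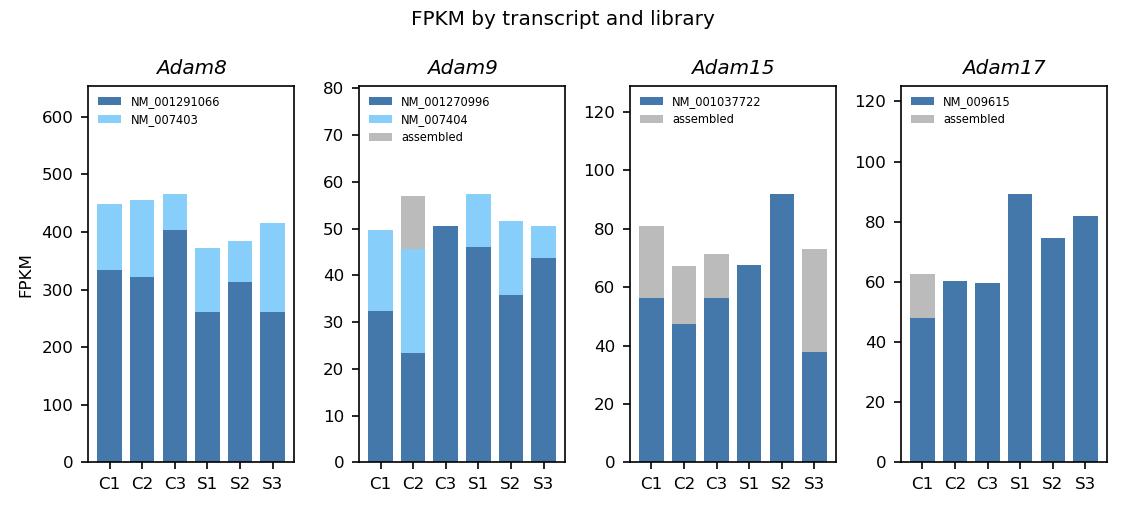
FPKM by transcript (stacked bars, linear axis from 0) in the 3 control (C) and 3 stimulated (S) libraries for Adam8, Adam9, Adam15 and Adam17. Blue bars are named transcripts and grey bars are transcripts assembled in that library: grey appears in 4 libraries for Adam15 and in 1 each for Adam9 and Adam17.

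Adam15 shows how much these assembled transcripts can shift a member. By gene symbol its FPKM was 56.4, 47.2 and 56.3 in the control and 67.5, 92.0 and 37.7 in the stimulated libraries. Stimulated 3 was then the lowest and stimulated 2 the highest of all. With assembled transcripts the values became 81.0, 67.3 and 71.3 FPKM in the control and 67.5, 92.0 and 73.1 in the stimulated libraries, and the groups overlapped in both sums. The log2 fold change was 0.21 (SE 0.333, limma adjusted p 0.85) by gene symbol and 0.07 (SE 0.145, limma adjusted p 0.905) with assembled transcripts. Without stimulated 2 the first of these was -0.08. In control cultures Adam15 with assembled transcripts averaged 73.2 ± 7.07 FPKM (SD, n = 3), second to Adam8. It lay above Adam17 at 60.9 ± 1.64 FPKM without overlap, and Adam17 lay above Adam10 at 53.8 ± 2.45 FPKM without overlap.

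Assembled transcripts held 30.4%, 29.8% and 21.0% of Adam15 FPKM in the controls, none in stimulated 1 or 2, and 48.5% in stimulated 3. In control 1, control 2 and stimulated 3 one of them was 2914 bases long, 75 bases shorter than NM_001037722, the only named Adam15 transcript above 0. The GENCODE annotation holds an Adam15 transcript that lacks exactly 1 exon of 75 bases, exon 20 of 23, in the coding sequence of the cytoplasmic tail at chr3:89340863-89340937 (minus strand).
Adam15 exon 20: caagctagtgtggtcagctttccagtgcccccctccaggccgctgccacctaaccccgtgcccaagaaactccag
The match rests on length alone, since the tables do not give the exons of an assembled transcript.

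Adam9 and Adam10 gave no call under any measure. Adam10 FPKM was 56.3, 53.6 and 51.5 in the control and 56.0, 62.9 and 51.4 in the stimulated libraries, all on 1 transcript, NM_007399. The groups overlapped, with stimulated 2 above all controls and the other 2 stimulated libraries within or just below the control range, and the log2 fold change was 0.07 (SE 0.119, 95% interval -0.22 to 0.37, limma adjusted p 0.859). Adam9 FPKM was 49.8, 45.7 and 50.7 in the control and 57.5, 51.7 and 50.6 in the stimulated libraries. Control 2, the lowest of these, reached 57.0 with an assembled transcript of 11.3 FPKM. The log2 fold change of Adam9 was 0.13 (SE 0.113, 95% interval -0.15 to 0.40, limma adjusted p 0.797) by gene symbol and 0.02 with assembled transcripts. These intervals leave room for a rise of Adam9 or Adam10 as large as the difference of 0.23 seen for Adam8.

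The 2 Adam9 transcripts of the tables differ in length by 54 bases, the length of a stretch at the 3′ end of exon 20 in GENCODE (chr8:24962860-24962913, minus strand, coding) that another Adam9 transcript lacks. The stretch is a unit of 27 bases that occurs back to back. Its match to the named transcripts rests on length alone, since GENCODE pairs both of them with the same transcript.
Adam9 exon 20 end: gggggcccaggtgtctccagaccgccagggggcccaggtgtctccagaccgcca
NM_001270996, the longer form, held 65.2%, 41.0% and 100% of Adam9 FPKM in the control and 80.3%, 69.5% and 86.3% in the stimulated libraries, and the groups overlapped.

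Adam19 was too low for a comparison. Its FPKM was 1.30, 1.33 and 0.88 in the control and 1.56, 1.40 and 1.20 in the stimulated libraries, which corresponds to 16.1 fragments in all 3 controls together and 18.2 in the stimulated libraries. Counting error alone gave a standard error of 0.49 on the log2 scale, larger than the log2 fold change of 0.24 (SE 0.571, limma adjusted p 0.91), so that no difference was detectable at this depth. All of it fell on NM_001291890 except in control 3, where NM_009616 took 51.5% and NM_001291891 took 48.5%, about 2 fragments each.

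**Figure D3:**
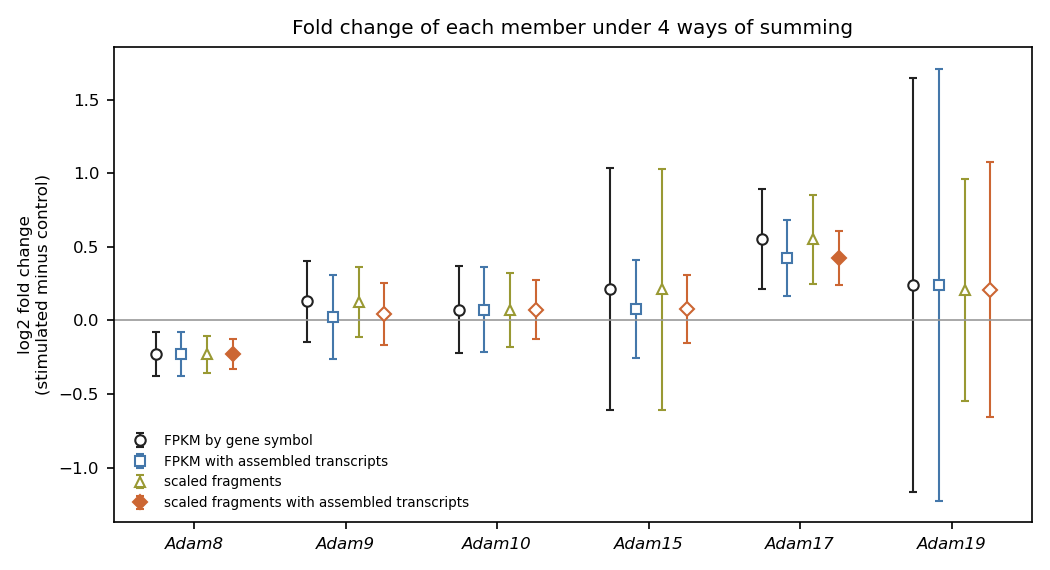
Log2 fold change of each member, stimulated minus control, with 95% intervals, from limma fits on 4 measures (marker shapes). Filled markers have an adjusted p under 0.05: these are Adam8 at -0.23 and Adam17 at 0.42 on scaled fragments with assembled transcripts, and all other markers are open.

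The total of the family differed little between the groups, while the shares of Adam8 and Adam17 in it differed. Summed FPKM by gene symbol was 659.9, 664.0 and 685.4 in the control and 643.6, 666.2 and 637.7 in the stimulated libraries, and the groups overlapped (log2 difference -0.05, exact two-sided permutation test, p = 0.3, n = 3 per group, where 0.1 is the smallest p possible). With assembled transcripts each stimulated total lay below each control total (log2 difference -0.08, exact permutation p = 0.1). Adam8 made up 64.1%, 65.5% and 66.6% of that total in the control and 57.8%, 57.6% and 61.6% in the stimulated libraries. Adam17 made up 8.97%, 8.69% and 8.50% in the control and 13.9%, 11.2% and 12.2% in the stimulated libraries. Neither pair of ranges overlapped.

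Set against Adam10 in the same library, which needs no scaling between libraries, Adam17 was also higher in stimulated cultures. The log2 ratio of Adam17 to Adam10 FPKM was -0.23, 0.17 and 0.21 in the control and 0.68, 0.24 and 0.67 in the stimulated libraries. The groups did not overlap, with a difference of 0.48 (exact two-sided permutation p = 0.1, n = 3 per group, the smallest p possible). With assembled transcripts the controls moved together to a mean of 0.18 ± 0.029 (SD, n = 3) and the difference was 0.35 (exact permutation p = 0.1). Stimulated 2, which had the highest Adam10 and the lowest Adam17 of its group, stayed closest to the controls.

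The genes whose pattern over the 6 libraries was closest to a member were found by the mean absolute difference of centred log2(FPKM + 0.1), among the 5111 genes averaging 10 FPKM or more. For Adam17 these were Acpp, Cd52 and Plek, at 0.05, 0.06 and 0.08, and for Adam8 Fam129b, Tcn2 and Sepp1, at 0.03, 0.03 and 0.04. With assembled transcripts, among 5558 genes, they became Cse1l, Vps29 and Tgm2 for Adam17 and Man2b1, Asap1 and Pld3 for Adam8. No gene was named for either member in both sums. The same held for Adam9, with Rab6a, Vimp and Rps9 by gene symbol and Ifi30, Cul1 and Tspyl1 with assembled transcripts, and for Adam15, with Ndufb7, Hsd17b10 and Isca1 by gene symbol (0.09 to 0.10) and Hdac1, Frrs1 and Oaz1-ps with assembled transcripts (0.03 to 0.04). For Adam10, with Rps26, Skap2 and Clta, and for Adam19, with Rbm3, Filip1l and Pno1, the 3 genes were the same in both sums.

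Next, genes that act on the members were described, first those that bring Adam17 and Adam10 to the surface. None of the 3 Adam17 partners passed the test. By gene symbol 0.145% of all tested genes were called higher and 0.0386% lower, and 0.316% and 0.0861% with assembled transcripts. At these shares a short list without a call says little about its genes, here and in the lists that follow. Values here include assembled transcripts. Rhbdf2, the iRhom of immune cells, was 23.9 ± 3.95 FPKM in control and 26.7 ± 5.19 in stimulated cultures (SD, n = 3), and Frmd8, which steadies the iRhom and Adam17 complex, was 26.3 ± 2.67 and 25.8 ± 3.10. Rhbdf1, the other iRhom, was low at 1.66 ± 1.03 and 3.56 ± 1.38 FPKM with overlapping groups. By gene symbol alone, Rhbdf2 gave a log2 fold change of -2.35 with an SE of 2.28, against 0.16 (SE 0.21) with assembled transcripts. Of the 6 TspanC8 tetraspanins 3 were tested and none was called. Tspan14 was the highest at 47.8 ± 6.68 and 43.7 ± 2.61 FPKM, followed by Tspan17 at 17.8 ± 2.36 and 17.7 ± 9.82 and Tspan5 at 6.71 ± 1.50 and 6.11 ± 1.08.

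Activators and inhibitors that act on some of the members also gave no call by gene symbol or with assembled transcripts. Of all tested genes 0.145% were called higher and 0.0386% lower by gene symbol, and 0.316% and 0.0861% with assembled transcripts. Furin, a convertase that removes the inhibitory prodomain of several members, was 67.4 ± 5.58 FPKM in control and 66.4 ± 7.18 in stimulated cultures. Pcsk7 was 9.20 ± 1.64 and 9.28 ± 2.42 FPKM, while Pcsk6 reached at most 0.32 FPKM. Timp2 was 131, 140 and 142 FPKM in the control and 121, 122 and 117 in the stimulated libraries, lower in all 3, with a log2 fold change of -0.20 (SE 0.075, limma adjusted p 0.716). Timp3, the inhibitor known to act on Adam17, was 36.7 ± 3.09 and 30.4 ± 3.69 FPKM with overlapping groups, at a log2 fold change of -0.27 (limma adjusted p 0.795). Timp1 was 43.6 ± 5.40 and 46.4 ± 9.60 FPKM.

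After shedding, the stub left in the membrane is cut by gamma-secretase or by signal peptide peptidase-like proteases. All 9 genes of this list were tested and none was called by gene symbol or with assembled transcripts. The shares of all tested genes called were 0.145% higher and 0.0386% lower by gene symbol, and 0.316% and 0.0861% with assembled transcripts. The highest, Psenen, was 176 ± 16.4 FPKM in control and 176 ± 28.6 in stimulated cultures, Ncstn 63.3 ± 1.66 and 63.0 ± 3.97, and Psen2 60.4 ± 10.2 and 69.9 ± 3.01. Sppl2a, which cuts the stub of Tnf and is singled out here after its values were seen, was 37.1, 35.0 and 35.2 FPKM in the control and 45.0, 51.4 and 43.1 in the stimulated libraries. On scaled fragments with assembled transcripts its log2 fold change was 0.37 (SE 0.102, limma adjusted p 0.0417), a call lost in 5 of the 6 fits that left out 1 library (adjusted p up to 0.332).

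Known substrates of Adam17 were higher more often than lower. Of 18 listed, 12 were tested and 10 had a higher mean in stimulated cultures. The median log2 fold change of the 12 was 0.42 by gene symbol, against 0.02 over all tested genes. With assembled transcripts it was 0.15, against 0.002 over all tested genes. The median by gene symbol was 0.27 without stimulated 2, 0.29 without control 3 and 0.55 without stimulated 1. None was called on those 2 sums. With assembled transcripts the groups did not overlap for 6 higher and 1 lower substrate of 12, where 9.01% of all tested genes were higher and 6.85% lower. On scaled fragments with assembled transcripts 4 of the 12 were called, all higher: Tnf, Icam1, Sdc4 and Tnfrsf1b. Of all tested genes 1.67% were called higher and 0.938% lower on that measure.

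Tnf, the cytokine after which Adam17 was named, was 12.6, 12.9 and 14.1 FPKM in the control and 64.0, 52.3 and 27.0 in the stimulated libraries, with assembled transcripts. The lowest stimulated library lay well above the highest control, and the log2 fold change was 1.38 (SE 0.283, limma adjusted p 0.326) by gene symbol, 1.76 (limma adjusted p 0.0762) with assembled transcripts and 1.64 (limma adjusted p 3.1e-05) on scaled fragments with assembled transcripts. Leaving out any 1 library kept the last value at an adjusted p of at most 0.00524. Stimulated 1, the library with the highest Adam17, also had the highest Tnf, whereas stimulated 3, second for Adam17, had the lowest Tnf of its group.

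The syndecan Sdc4, a heparan sulfate proteoglycan, was 33.4, 27.3 and 22.3 FPKM in the control and 44.7, 59.0 and 43.6 in the stimulated libraries. Its log2 fold change was 0.83 (SE 0.21, limma adjusted p 0.45) by gene symbol and 0.82 (limma adjusted p 0.00237) on scaled fragments with assembled transcripts, a call lost without stimulated 2 (adjusted p 0.0745). Sdc1, the related syndecan 1, was 25.5 ± 2.15 FPKM in control and 37.1 ± 5.32 in stimulated cultures, higher in all 3, at a log2 fold change of 0.53 (limma adjusted p 0.597 by gene symbol and 0.064 on scaled fragments with assembled transcripts). Icam1, an adhesion molecule singled out after its values were seen, was 40.7, 41.8 and 36.7 FPKM in the control and 110, 63.0 and 60.1 in the stimulated libraries with assembled transcripts. Its limma adjusted p was 0.797 by gene symbol and 0.000881 on scaled fragments with assembled transcripts, at most 0.0253 without any 1 library.

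Among the abundant receptors the differences were small. Tnfrsf1b, the second Tnf receptor, was 379 ± 11.8 FPKM in control and 424 ± 22.9 in stimulated cultures (SD, n = 3), with no overlap. Its log2 fold change of 0.16 had a limma adjusted p of 0.737 by gene symbol and 0.0435 on scaled fragments with assembled transcripts, a call lost in 5 of the 6 fits that left out 1 library. Csf1r, the receptor for macrophage colony-stimulating factor, was 613 ± 37.8 and 618 ± 52.4 FPKM. Trem2, a lipid receptor of macrophages that Adam10 also cuts, was 595 ± 35.8 and 524 ± 16.8 FPKM, lower in all 3, at a log2 fold change of -0.18 (limma adjusted p 0.685).

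Known substrates of Adam10 showed no common direction. Of 15 listed, 11 were tested, with 5 higher and 6 lower means and a median log2 fold change of -0.18 by gene symbol, but 0.09 with assembled transcripts. The median by gene symbol was 0.04 without control 1, -0.04 without stimulated 2 and 0.09 without stimulated 3. Again none was called on those 2 sums. On scaled fragments with assembled transcripts 1 was called higher and 1 lower, where 1.67% of all tested genes were called higher and 0.938% lower. Cxcl16, a chemokine anchored in the membrane that is singled out after its values were seen, was 184, 169 and 185 FPKM in the control and 227, 244 and 208 in the stimulated libraries. Its log2 fold change on that measure was 0.35 (SE 0.077, limma adjusted p 0.0048), lost without stimulated 2 (adjusted p 0.0606). Lrp1, an endocytic receptor, was 237 ± 2.22 and 217 ± 15.4 FPKM, lower in all 3. Its log2 fold change was -0.52 (SE 0.337, limma adjusted p 0.797) by gene symbol and -0.15 (limma adjusted p 0.0474) on scaled fragments with assembled transcripts, a call lost in 5 of the 6 fits that left out 1 library. App, the amyloid precursor that both enzymes cut, was 121 ± 6.09 and 132 ± 2.75 FPKM with no overlap (log2 fold change 0.13, limma adjusted p 0.698, with assembled transcripts).

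Growth factors that activate the EGF receptor, several of them shed by Adam17, were nearly absent, as was neuregulin 1. None of these 8 genes reached the limit for testing. Hbegf was the highest at 1.25 FPKM in its top library, Ereg was at most 0.69 FPKM in control and listed at 0 in all stimulated libraries, and Nrg1 was above 0 in 1 library only.

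**Figure D4:**
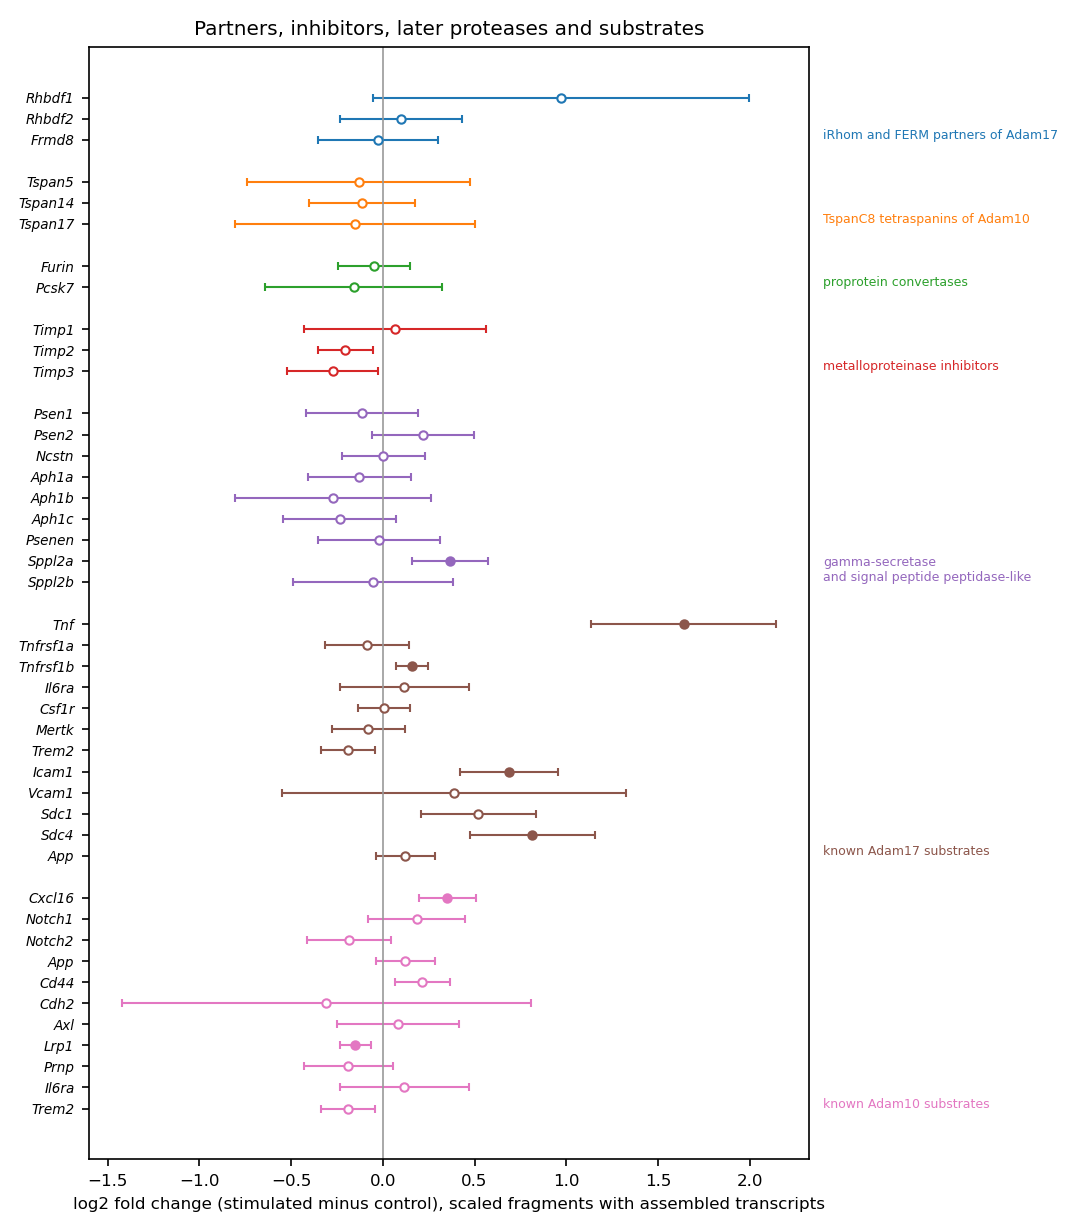
Log2 fold change (x axis) with 95% intervals for tested partners, inhibitors, later proteases and substrates of the members, from the limma fit on scaled fragments with assembled transcripts. Filled points have an adjusted p under 0.05: Tnf at 1.64 lies farthest to the right, and the 2 called Adam10 substrates, Cxcl16 and Lrp1, lie on opposite sides of 0. Il6ra, App and Trem2 appear under both enzymes.

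Markers of cell identity were read beside Adam17 and Adam8. By gene symbol 6 of the 7 macrophage markers had a higher mean in stimulated cultures and 1, Lyz2, a lower mean (log2 fold change -0.008). On scaled fragments with assembled transcripts Mertk was lower (-0.079). With assembled transcripts all 7 had a higher mean, at a median of 0.13 against 0.002 over all tested genes. Csf1r (0.009) and Lyz2 (0.033) were then near 0. On that sum 0.316% of all tested genes were called higher. Adgre1, the F4/80 antigen, was 365 ± 13.4 FPKM in control and 549 ± 22.0 in stimulated cultures, with a log2 fold change of 0.59 (limma adjusted p 0.00807), and Itgam, the Cd11b integrin, was 354 ± 7.98 and 425 ± 18.5 FPKM, with a log2 fold change of 0.26 (limma adjusted p 0.173). Cd68 was 1160 ± 65.0 and 1248 ± 36.3 FPKM, Fcgr1 7.96 ± 2.89 and 11.3 ± 1.38, and Mertk 79.8 ± 14.2 and 88.0 ± 19.7, with overlapping groups. Fibroblast markers summed to 155 to 169 FPKM in control and 104 to 119 FPKM in stimulated cultures. Of the 4 tested, Col1a1 (log2 fold change -0.72) and Col1a2 (-0.41) were lower in all 3. Their limma adjusted p was 0.0798 and 0.285 with assembled transcripts. On scaled fragments with assembled transcripts it was 2.22e-06 and 0.00346, the second lost without control 3 (0.0543). The other tested markers were low, with overlapping groups and opposite directions. Col3a1 was 3.1 ± 1.4 FPKM in control and 1.7 ± 0.16 in stimulated cultures (log2 fold change -0.70, limma adjusted p 0.714 with assembled transcripts). Dcn was 2.8 ± 0.96 and 3.5 ± 1.5 FPKM (0.28, limma adjusted p 0.892). Of the 11 chondrocyte markers 6 were listed at 0 in all libraries, and the highest value of any was 1.81 FPKM for Comp in a control. The part of these cell types in the values of the members was not tested.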

How the data were processed

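The members, gene lists and tests were chosen with earlier results of these data known. Reads (paired, 100 bp) had been aligned by the authors to mm10 with TopHat and Bowtie, and transcripts assembled and estimated with Cufflinks in each library, versions not given in the sources used here. The deposited tables hold FPKM per transcript, RefSeq transcripts as well as transcripts assembled in that library, with the interval of each FPKM and a coverage signal. The authors' methods name TMM scaling and removal of low FPKM, which the tables do not show.

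FPKM were summed by gene symbol. Symbols averaging 1 FPKM or more entered limma 3.58.1 (R 4.3.3, trend and robust, two-sided) on log2(FPKM + 0.1), with Benjamini-Hochberg adjustment over all of them. The fit was checked first by a test on simulated data. That simulation held no fragments lost to assembled transcripts, so it does not show how the fit behaves with such losses. Single ratios and sums were tested by exact permutation in scipy 1.17.1. Assembled transcripts were joined to a gene through the gene identifier they shared with overlapping named transcripts in the same file. In each library 27 to 53 of them matched several symbols and were added in full to each. Fragments were estimated from the deposited coverage and transcript length, with a length correction per library (207 to 224 bases) under which 95.1% to 95.9% of values up to 8 lay within 0.1 of a whole number. On that scale the libraries held 699000 to 776000 fragments, fewer than the read number in the study's methods implies, and the reason was not tested. Counting errors rest on this estimate and cover counting only.

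Named besides the members were genes of the partner, inhibitor, protease and substrate lists with an adjusted p under 0.05 (sum by gene symbol or scaled fragments) or with groups that do not overlap and an absolute log2 fold change over 0.5, and the 3 highest genes of each list. Alternatives covered pseudocount, filter, scaling, unit, transcript set, status, replicate block and each library left out. Replicates of a group differed by more than sampling noise (mean chi-square per gene 1.41 to 2.57 with assembled transcripts), so none was counted as a copy of another. Libraries of different groups gave 1.97 to 3.53, which overlaps that range. Stimulated 3 differed less from controls 1 and 2 (2.05 and 1.97) than from stimulated 1 and 2 (2.09 and 2.57), but most from control 3 (2.92). Control 3 differed less from stimulated 2 (2.37) than from controls 1 and 2 (2.51 and 2.48), but more from stimulated 1 and 3 (2.53 and 2.92). Sequences were read from GENCODE M21 transcripts.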

Additional observations from a re-analysis of the deposited data

How the results depend on the processing

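Limits: 3 cultures per group, a total of about 18 fragments per group for Adam19, and transcript assembly made separately in each library. None of the 6 members was called in any alternative listed at the outset. Adam17 stayed higher (log2 fold change 0.42 to 0.62) and Adam8 lower (-0.29 to -0.20) in all 18 of them. Most of these could not have turned the sign. The groups of both genes do not overlap, so leaving out 1 library keeps it. The filters, the fit without trend, named transcripts only, status and replicate block left both fold changes as they were. Adam17 (0.42, adjusted p 0.00326) and Adam8 (-0.23, adjusted p 0.00462) passed only on scaled fragments with assembled transcripts, which was chosen after seeing the data. There, leaving out 1 library gave 0.36 to 0.49 for Adam17 and -0.27 to -0.20 for Adam8. Signs turned where a library was left out: Adam10 ranged from -0.0034 to 0.14 and Adam15 from -0.0756 to 0.57 by gene symbol, and on scaled fragments with assembled transcripts Adam9 from -0.014 to 0.0797, Adam10 from -0.0051 to 0.14 and Adam15 from -0.0557 to 0.17. The negative values came without stimulated 2 for Adam10 and Adam15 and without stimulated 1 for Adam9. The family total was lower and the Adam17 to Adam10 ratio higher in stimulated cultures in all 13 alternatives. For the ratio, whose groups do not overlap, leaving out 1 library could not turn the sign.

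The count of called genes, 19 of 10352, was 8 with a pseudocount of 0.01, 12 with a mean of at least 5 FPKM, 42 with assembled transcripts and 273 on scaled fragments with assembled transcripts. Leaving out 1 library gave 0 to 19, and 160 to 238 on the last measure. Using named transcripts only is the same as the sum by gene symbol, since no assembled transcript carries a symbol. By gene symbol, deviations of same-numbered libraries correlated at r = 0.031, 0.023 and 0.01, so no pairing by replicate number was seen. Replicates of a group varied widely on that sum (mean chi-square per gene 4.93 to 6.7), so a pairing of the cultures could be missed. With the replicate block 0 genes were called by limma (519 at an unadjusted p under 0.05), with Adam17 at 0.55 (adjusted p 0.788). Other causes were not tested.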
